A study of Mus musculus with 4 samples.

Results

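The genes described here are 10 antiviral genes that type I interferon is known to induce: Isg15, Usp18, Ifit1, Ifit2, Ifit3, Ifitm3, Bst2, Rsad2, Ifi27 and Ifi27l2a. They were chosen by name, with earlier results of these data known, and all 10 are among the 41862 gene columns of the tables. Levels were read by cell type in 4 single-cell RNA libraries (inDrops) from C57BL6 mice, made from central nervous system cells sorted on an Aldh1l1CreERT2-TdTomato reporter, in which a tamoxifen-dependent Cre under an astrocyte promoter switches on the dye. The groups are TdTomato+ LAMP1+ TRAIL+ and TdTomato+ LAMP1+ TRAIL- cells of mice with experimental autoimmune encephalomyelitis (EAE) at the peak of disease, and the same 2 gates in naive mice. EAE, a model of multiple sclerosis, was induced with the myelin peptide MOG35-55 in CFA. All 4 groups carry the reporter and passed the LAMP1 gate. The series gives 3 EAE and 3 naive mice, and the sources used here do not say whether cells of several mice were pooled. Each group is 1 library, so no difference below has a test between animals, and every interval is a 95% interval that covers counting error only.

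Type I interferons bind a receptor made of Ifnar1 and Ifnar2, which activates the kinases Jak1 and Tyk2. The kinases activate transcription factors, Stat2 and Irf9 among them, that enter the nucleus and bind interferon-stimulated response elements in the promoters of antiviral genes. Isg15 encodes a ubiquitin-like protein that is attached to other proteins, and Usp18 removes it and also damps signalling at the receptor. The Ifit proteins bind viral RNA, Ifitm3 blocks viral entry at membranes, Bst2 (tetherin) holds budding virus at the cell surface, and Rsad2 (viperin) makes a nucleotide that stops viral RNA synthesis. Ifi27 and Ifi27l2a encode small hydrophobic proteins of 1 family.

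Letters of the element that the pathway acts through were found in the promoters of most of these genes that could be searched. In the RefSeq promoter windows of GRCm38.p6, which run from 250 bases before to 50 bases after a transcript start, the letters GAAANNGAAA were searched on both strands (TTTCNNTTTC on the other), with overlapping matches counted. At least 1 match was found for 6 of the 7 members that have a window (85.7%), against 1079 of 27025 genes with a window (3.99%). The stretches below are written 5′ to 3′ on the strand of the gene, with every matched base in capitals, and are shown because they carry the clearest matches upstream of the start.
Isg15: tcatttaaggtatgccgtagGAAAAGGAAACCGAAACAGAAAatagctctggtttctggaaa
Ifit1: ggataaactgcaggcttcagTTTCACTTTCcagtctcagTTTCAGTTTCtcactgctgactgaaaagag
Ifit3: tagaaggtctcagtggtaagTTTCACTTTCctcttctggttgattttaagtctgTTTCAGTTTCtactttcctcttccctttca
Bst2: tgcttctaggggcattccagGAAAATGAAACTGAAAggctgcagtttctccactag
Rsad2: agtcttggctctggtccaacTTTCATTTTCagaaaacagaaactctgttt
Isg15 (chr4:156200855-156200916, minus strand) has 3 matches that overlap one another, the first starting at position -78 from the transcript start. Ifit1 (chr19:34640765-34640833, plus strand) and Ifit3 (chr19:34583353-34583436, plus strand) each have a pair, at -104 and -85 in Ifit1 and at -156 and -122 in Ifit3, and the letters of both pairs are the same. Bst2 (chr8:71537567-71537622, minus strand) has 2 overlapping matches from -130, and Rsad2 (chr12:26456543-26456592, minus strand) has 1 at -120. Ifitm3 has 2 matches within the first bases of its transcript, starting at positions 3 and 20. Neither of the 2 Ifit2 windows holds these letters, which says nothing of other forms of the element. Ifi27, Ifi27l2a and Usp18 were not searched. A match is a description of sequence and not a site shown to be bound.

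The libraries held 2803 barcodes in EAE TRAIL+, 2808 in EAE TRAIL-, 3673 in naive TRAIL+ and 3703 in naive TRAIL-, with 2856696 to 3984975 unique molecular identifiers (UMIs) a library. Barcodes with at least 500 UMIs and at most 20% mitochondrial UMIs numbered 1814, 1597, 2229 and 2259 in the same order, and 23 to 40 of them were shared by any 2 libraries. The cells are labelled astrocytes. Clusters that carry astrocyte markers held 0.496% of the cells in EAE TRAIL+, 0.188% in EAE TRAIL-, 6.51% in naive TRAIL+ and 1.55% in naive TRAIL-, so the data go against the label. Microglia-like cells made up 86.3% of EAE TRAIL+ and 83.4% of naive TRAIL+ cells, while the TRAIL- libraries were mostly endothelial-like, pericyte or smooth muscle-like and, in EAE, monocyte or macrophage-like. The gate therefore changes the cell types, and genes are compared within a type. The interferon genes were left out of the clustering that named the types. A level is given in counts per 1000000 summed UMIs of a type in a library (CPM), and a share of cells after every cell was thinned to 500 UMIs. Levels are compared between cell types and libraries, not between genes. Fewer cells with a transcript and less of it per cell cannot be told apart in a summed level.

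**Figure D1:**
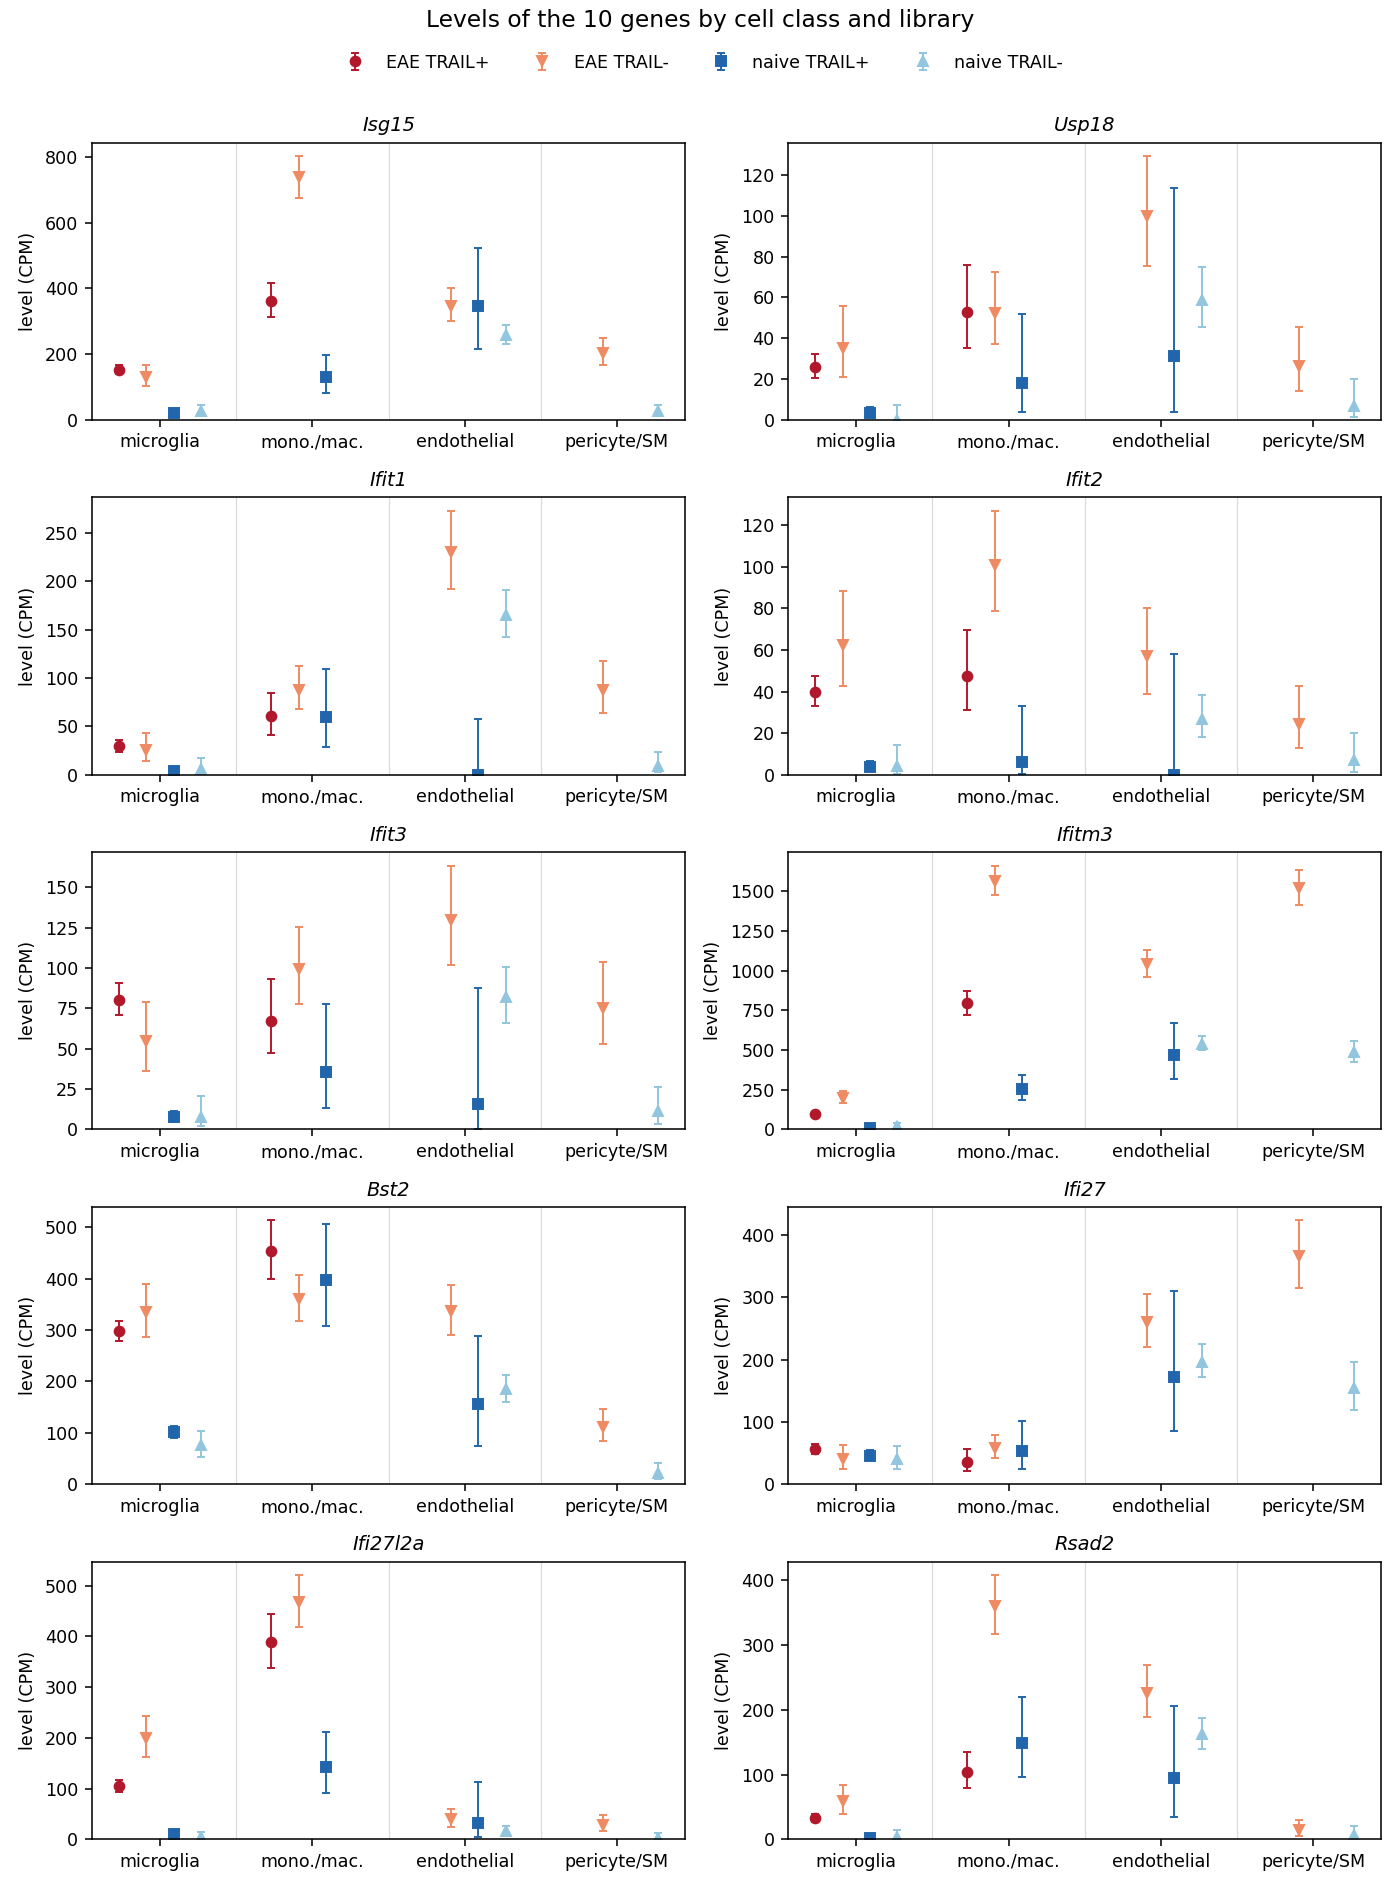
Level of each gene (CPM, linear axis) in microglia-like, monocyte or macrophage-like, endothelial-like and pericyte or smooth muscle-like cells. Points are libraries with at least 50 cells of the type, bars are exact 95% Poisson intervals, and EAE points stand left of naive points; Isg15 reached 738 CPM in EAE TRAIL- monocyte or macrophage-like cells against 26.1 CPM in naive TRAIL- microglia-like cells.

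Isg15 (ENSMUSG00000035692.6, GRCm38 chromosome 4, 156199424 to 156200818, minus strand) and Usp18, its protease, were both low in naive microglia. In microglia-like cells Isg15 stood at 151 CPM in EAE TRAIL+ and 131 CPM in EAE TRAIL-, against 18.9 CPM in naive TRAIL+ and 26.1 CPM in naive TRAIL-. Both EAE levels lie above both naive levels, and the intervals of the EAE and naive libraries do not overlap. Endothelial-like cells had 347 CPM of Isg15 in EAE TRAIL-, against 346 CPM in the 57 cells of naive TRAIL+ and 258 CPM in naive TRAIL-. The naive endothelial level thus lay above both EAE microglial levels. Pericyte or smooth muscle-like cells had 204 CPM in EAE TRAIL-, against 24.95 CPM in naive TRAIL-. That naive level lay within the interval of the microglia-like cells of naive TRAIL-. Usp18 (chromosome 6, 121245906 to 121270917, plus strand) overlaps the antisense RNA gene Gm44148, and no source used here says whether counting used the strand. It stood at 25.8 CPM in EAE TRAIL+ and 35.2 CPM in EAE TRAIL- microglia-like cells, against 3.26 CPM in naive TRAIL+ and 0 UMIs in naive TRAIL-. Endothelial-like cells had 99.7 CPM of Usp18 in EAE TRAIL-, against 59.0 CPM in naive TRAIL-.

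The Ifit genes lie together on chromosome 19, Ifit2 at 34550694 to 34576419, Ifit3 at 34583531 to 34588731 and Ifit1 at 34640871 to 34650009. Ifit3 has the close copy Ifit3b and Ifit1 the relative Ifit1bl1, so counts of these genes are uncertain where reads could match both. In microglia-like cells Ifit3 stood at 80.3 CPM in EAE TRAIL+ and 54.8 CPM in EAE TRAIL-, against 7.49 CPM in naive TRAIL+ and 8.02 CPM in naive TRAIL-. Ifit1 stood at 29.3 and 25.4 CPM in EAE TRAIL+ and EAE TRAIL-, against 3.26 and 6.02 CPM in naive TRAIL+ and naive TRAIL-. Ifit2 stood at 39.8 and 62.6 CPM in the EAE libraries, against 3.58 and 4.01 CPM in the naive ones, in the same order of gates. All 3 were thus low in naive microglia of both gates and higher in EAE microglia of both. Endothelial-like cells had 229.7 CPM of Ifit1 in EAE TRAIL-, against 165 CPM in naive TRAIL-. Ifit3 stood at 130.0 CPM in EAE TRAIL- against 82.2 CPM in naive TRAIL- endothelial-like cells, and Ifit2 at 57.0 against 26.8 CPM. Pericyte or smooth muscle-like cells had 87.5 CPM of Ifit1 in EAE TRAIL-, against 9.07 CPM in naive TRAIL-.

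Among the proteins that act on virus at membranes, Ifitm3 (chromosome 7, 141009586 to 141010770, minus strand) was high in both vascular types. It stood at 1520.2 CPM in EAE TRAIL- pericyte or smooth muscle-like cells against 490.0 CPM in naive TRAIL- ones, and at 1044 CPM in EAE TRAIL- endothelial-like cells against 541 CPM in naive TRAIL- ones. In microglia-like cells it stood at 99.4 CPM in EAE TRAIL+ and 202 CPM in EAE TRAIL-, against 7.17 CPM in naive TRAIL+ and 22.1 CPM in naive TRAIL-. Naive microglia had the lowest level of these types in both gates. Bst2 (chromosome 8, 71534255 to 71537456, minus strand) stood at 298 CPM in EAE TRAIL+ and 335 CPM in EAE TRAIL- microglia-like cells, against 102 CPM in naive TRAIL+ and 76.2 CPM in naive TRAIL-. Rsad2 (chromosome 12, 26442746 to 26456452, minus strand) stood at 226 CPM in EAE TRAIL-, against 163 CPM in naive TRAIL- endothelial-like cells. In pericyte or smooth muscle-like cells it stood at 14.2 CPM in EAE TRAIL-, against 6.81 CPM in naive TRAIL-, the widest ratio between the 2 vascular types among the 10 genes in both libraries. In microglia-like cells Rsad2 stood at 32.5 CPM in EAE TRAIL+ and 58.7 CPM in EAE TRAIL-, against 1.95 CPM in naive TRAIL+ and 4.01 CPM in naive TRAIL-.

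Ifi27 and Ifi27l2a are neighbours on chromosome 12, at 103434211 to 103440239 and 103442167 to 103443680, and differed in pattern. Ifi27 was highest in choroid plexus epithelial-like cells, at 1243 CPM in 41 cells of EAE TRAIL- and 779 CPM in 90 cells of naive TRAIL-. The same naive choroid cells had 0 UMIs of Isg15, Ifit1, Ifit2, Ifit3 and Rsad2 among 344245 UMIs, and a count of 0 allows a level of up to 8.71 CPM for each. In microglia-like cells Ifi27 stood at 56.1 CPM in EAE TRAIL+ and 41.1 CPM in EAE TRAIL-, against 46.3 CPM in naive TRAIL+ and 40.1 CPM in naive TRAIL-, with overlapping intervals throughout. Ifi27l2a, which has close relatives in its family, stood at 104 CPM in EAE TRAIL+ and 199.6 CPM in EAE TRAIL- microglia-like cells, against 10.8 CPM in naive TRAIL+ and 4.01 CPM in naive TRAIL-. It was highest in monocyte or macrophage-like cells, at 388 CPM in EAE TRAIL+ and 467 CPM in EAE TRAIL-, and low in endothelial-like cells, at 39.2 CPM in EAE TRAIL-, against 16.1 CPM in naive TRAIL-.

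The first comparison concerns vascular expression in naive mice, where endothelial-like cells held several antiviral genes at levels that microglia-like cells of the same library did not reach. Their summed level of the 10 genes was 1693 CPM in endothelial-like cells (1160 cells) and 191 CPM in microglia-like cells (314 cells), a ratio of 8.89 (7.23 to 11.04). Rsad2 was 40.5-fold higher in endothelial-like than in microglia-like cells (11.1 to 337, from 182 and 2 UMIs), Ifit1 27.5-fold (9.26 to 134) and Isg15 9.90-fold (5.70 to 18.8). Usp18, at 59.0 CPM against 0 UMIs, was at least 9.80-fold higher. Of the 10 genes, 6 reached a mean of 50 CPM over both types, the level set for counting, and all 6 were at least 2-fold higher in endothelial-like cells, in a comparison in which 28.1% of all genes were. With 10 CPM in its place all 10 were, against 28.7% of all genes. A gene that reaches the level only through the side on which it is high had to differ, as holds here for Isg15, Ifit1, Ifitm3 and Rsad2, so in this and the later comparisons the ratios carry the result and not these counts. The members that did not reach 50 CPM were Usp18, Ifit2, Ifit3 and Ifi27l2a, with ratios of 6.68 for Ifit2, 10.2 for Ifit3 and 4.01 (0.960 to 35.6) for Ifi27l2a. An Isg15 UMI was found in 8.10% of endothelial-like cells and in 0% of 90 choroid plexus epithelial-like cells (exact upper limit 4.02%). The median depths of these types were 898 and 3200.5 UMIs before thinning. The same amount of RNA from outside would be a smaller share of a deeper cell, so the choroid value does not measure that background. In naive TRAIL- barcodes under 500 UMIs, not divided by cell type, Isg15 stood at 71.8 CPM, Ifit1 at 110.7 CPM and Rsad2 at 71.8 CPM. The part of RNA outside cells in the endothelial levels was not tested.

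Within the vessel wall of naive mice the genes split. Ifitm3 and Ifi27 were about as high in pericyte or smooth muscle-like cells (518 cells) as in endothelial-like cells, with endothelial over pericyte ratios of 1.10 (0.944 to 1.30) and 1.27 (0.967 to 1.70). Rsad2 was 23.9-fold (8.05 to 117) higher in endothelial-like than in pericyte or smooth muscle-like cells, Ifit1 18.2-fold (6.99 to 67.6), Isg15 10.3-fold (5.70 to 20.96) and Bst2 8.15-fold (4.34 to 17.3). Of the 6 members past the mean of 50 CPM, 4 were at least 2-fold higher in endothelial-like cells, against 19.1% of all genes. Set against microglia-like cells, pericyte or smooth muscle-like cells had 22.2-fold more Ifitm3 (12.2 to 45.2) and 3.85-fold more Ifi27 (2.31 to 6.69), the 2 members past the level, in a comparison in which 33.3% of all genes were at least 2-fold higher. Isg15 did not differ detectably there, at 0.957-fold (0.388 to 2.32), and Bst2 was lower, at 0.298-fold (0.132 to 0.609). Bst2 came to be counted only at a mean of 10 CPM, where 21.3% of all genes were at least 2-fold lower in pericytes.

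**Figure D2:**
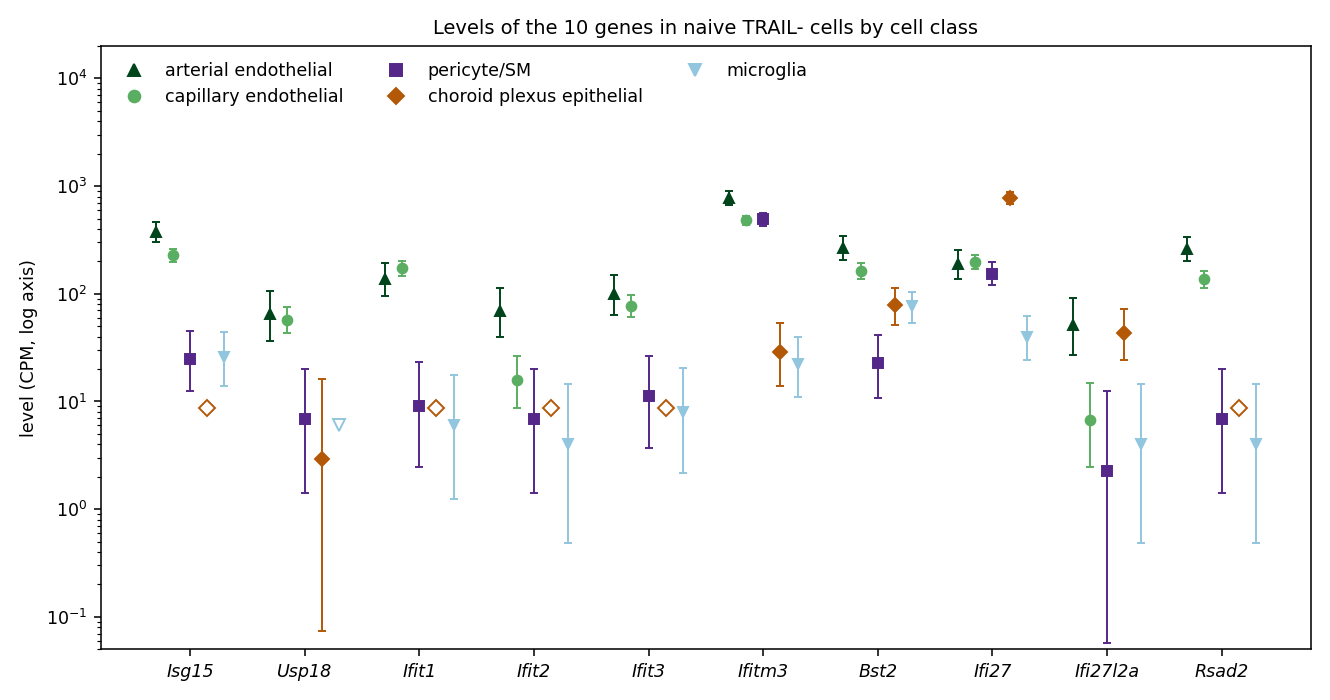
Level of each gene (CPM, log axis) in 5 cell types of the naive TRAIL- library, with exact 95% Poisson intervals. Open symbols mark 0 UMIs and are drawn at the level of 3 UMIs; Isg15 stood at 375 CPM in arterial, 228 CPM in capillary endothelial-like and 24.95 CPM in pericyte or smooth muscle-like cells, and Ifi27 was highest in choroid plexus epithelial-like cells at 779 CPM.

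The endothelium itself was not uniform. Arterial endothelial-like cells (204 cells) had a summed level of 2296 CPM in naive TRAIL-, against 1536 CPM in capillary endothelial-like cells (956 cells) of the library, a ratio of 1.495 (1.35 to 1.65). Isg15 stood at 375 CPM in arterial and 228 CPM in capillary cells (1.65-fold, 1.27 to 2.13), Rsad2 at 263 and 136 CPM (1.93-fold, 1.40 to 2.65) and Ifitm3 at 777 and 479.9 CPM (1.62-fold, 1.35 to 1.93). Ifit1 stood at 138 CPM in arterial and 172 CPM in capillary cells, a ratio of 0.801 (0.529 to 1.18). None of the 8 members past the mean of 50 CPM was 2-fold higher in arterial cells, where 6.99% of all genes were. In the 57 endothelial-like cells of naive TRAIL+, Isg15 stood at 346 CPM and Ifitm3 at 471 CPM, while Ifit1 and Ifit2 had 0 UMIs. Set against 165 CPM in naive TRAIL-, Ifit1 was lower in naive TRAIL+ by at least 3.51-fold, the 1 member of 6 counted that was 2-fold lower, where 8.82% of all genes were. Microglia markers summed to 7242 CPM in the endothelial-like cells of naive TRAIL+ and 3588 CPM in those of naive TRAIL-, and their part in this difference was not tested.

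The main question of the design is how EAE differs from naive. In microglia-like cells of the TRAIL+ gate (1565 EAE and 1859 naive cells) 9 of the 10 genes were higher in EAE, Ifi27 being the exception at 1.21-fold (0.966 to 1.52). Rsad2 was 16.6-fold higher (7.38 to 46.3), Ifitm3 13.9-fold (8.99 to 22.4), Ifit2 11.1-fold (5.999 to 22.8), Ifit3 10.7-fold (6.98 to 17.2), Ifi27l2a 9.72-fold (6.78 to 14.4) and Ifit1 8.99-fold (4.68 to 19.4). Isg15 was 8.01-fold higher (6.09 to 10.7), Usp18 7.92-fold (4.09 to 17.1) and Bst2 2.92-fold (2.57 to 3.33). Past the mean of 50 CPM were 5 members, of which 4 were at least 2-fold higher against 2.34% of all genes, and 0.406% of all genes were 2-fold lower. With the mean lowered to 10 CPM, all 10 were compared and 9 were higher, against 3.91% of all genes. The difference was present within each of the larger microglia-like clusters, Isg15 standing at 167 CPM in EAE TRAIL+ against 21.4 CPM in naive TRAIL+ in the first and at 115 against 15.6 CPM in the second. The count depended on which cells were called microglia-like. When the interferon genes were kept in the clustering, 740 EAE TRAIL+ and 32 naive TRAIL+ cells went to an unnamed cluster led by C4b, Hcar2 and Cd74, and in the cells still called microglia-like (877 EAE and 1806 naive) 0 members reached 50 CPM and a 2-fold difference. In those cells the log2 ratio was 1.75 (1.26 to 2.26) for Isg15, 2.69 (1.98 to 3.46) for Ifitm3, 0.99 (0.76 to 1.22) for Bst2 and 0.47 (-1.19 to 2.07) for Ifit1.

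The TRAIL- gate gave microglia-like cells in smaller number (259 EAE and 314 naive cells) and the same directions. The summed level was 1145 CPM in EAE TRAIL-, against 190.5 CPM in naive TRAIL-, a ratio of 6.01 (4.83 to 7.55), against 4.48 (4.11 to 4.89) in the TRAIL+ gate, where the sums were 917 CPM in EAE against 205 CPM in naive. Ifi27l2a, at 102 UMIs in EAE and 2 in naive, was 49.8-fold higher (13.4 to 416), Ifitm3 9.14-fold (4.90 to 18.9), Isg15 5.03-fold (2.75 to 9.93) and Bst2 4.39-fold (3.07 to 6.42). Usp18 was at least 5.86-fold higher, and Ifi27 was at 1.02-fold (0.529 to 1.99). The 4 members past the mean of 50 CPM were all at least 2-fold higher, against 6.9% of all genes, and at 10 CPM 9 of 10 were, against 13.4%. Ifit1 rested on 13 UMIs in EAE TRAIL-, of which 9 came from 1 cell, and its ratio of 4.23 became 1.95 (0.279 to 21.6) without the highest cell of each library. Monocyte markers, which would show blood cells in the class, summed to 576 CPM in EAE TRAIL+ and 639.9 CPM in EAE TRAIL- microglia-like cells, against 416 CPM in naive TRAIL+ and 299 CPM in naive TRAIL-. All 12 of these markers had a UMI in both EAE libraries, against 10 in naive TRAIL+ and 7 in naive TRAIL-. The same list summed to 12158 CPM in the monocyte or macrophage-like cells of EAE TRAIL+, and its part in the microglial levels was not tested.

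**Figure D3:**
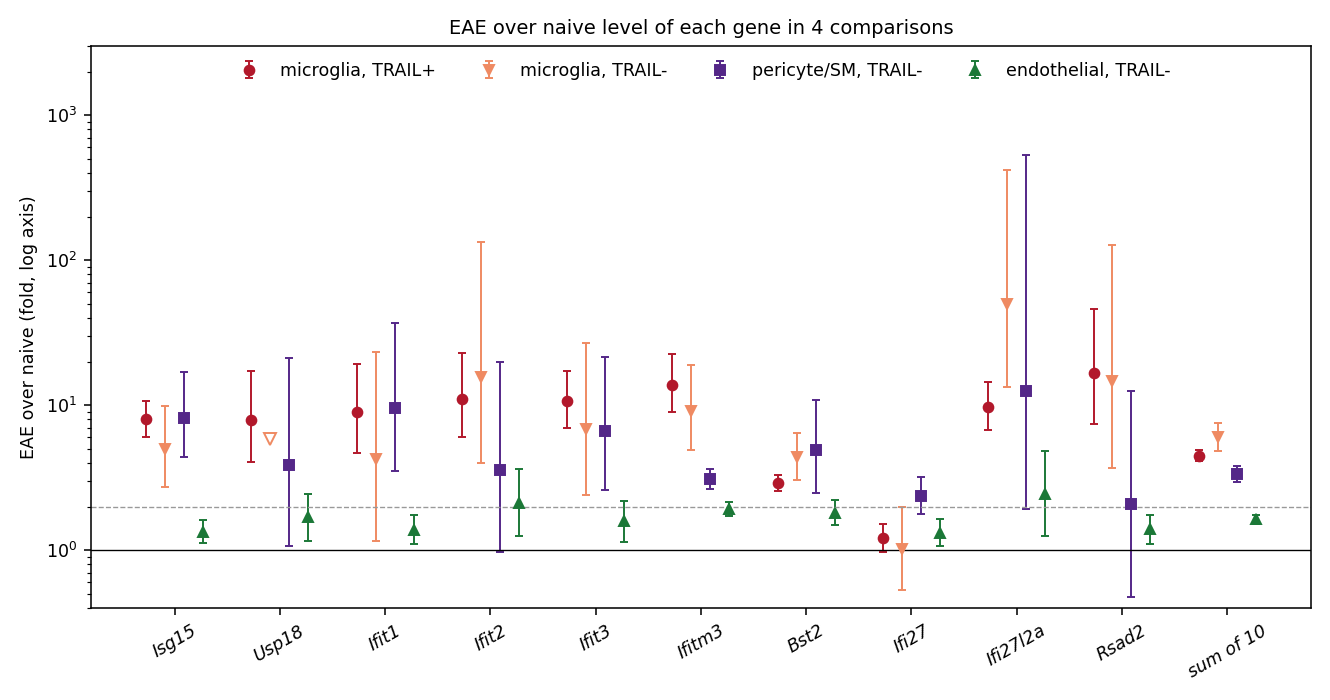
EAE over naive ratio of each gene and of their sum (log axis) in 4 comparisons of the same cell type and gate, with exact 95% intervals; the solid line marks 1 and the dashed line 2. The open symbol is the lower bound for Usp18, which had 0 UMIs in naive TRAIL- microglia-like cells; endothelial-like cells (triangles pointing up) had the lowest ratio of the 4 comparisons for 9 of the 10 genes, and Ifi27 the lowest ratio of any gene in microglia-like cells.

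Pericyte or smooth muscle-like cells (467 EAE and 518 naive cells) had a higher summed level of the genes in EAE, and of Isg15, Ifit1, Ifit3, Bst2, Ifitm3 and Ifi27 among them. Their summed level was 2458 CPM in EAE TRAIL-, against 735 CPM in naive TRAIL-, a ratio of 3.34 (2.96 to 3.79). Ifitm3 made up most of this sum in both libraries. Ifit1 was 9.64-fold higher (3.50 to 37.0), Isg15 8.16-fold (4.37 to 16.9), Ifit3 6.64-fold (2.60 to 21.6) and Bst2 4.93-fold (2.49 to 10.9). Ifitm3, already high in naive pericytes, was 3.10-fold higher (2.66 to 3.63), and Ifi27, which did not differ detectably in microglia, was 2.37-fold higher (1.79 to 3.19). Rsad2, with 7 UMIs in EAE and 3 in naive, had a ratio of 2.09 (0.478 to 12.5), so that no difference was detectable at this depth. The 4 members past the mean of 50 CPM were all at least 2-fold higher, against 2.85% of all genes, and at 10 CPM 10 of 10 were, against 10.1%. Monocyte markers summed to 307 CPM in EAE TRAIL- (11 of 12 with a UMI), against 93.0 CPM in naive TRAIL- (6 of 12), and their part in these ratios was not tested.

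In endothelial-like cells (497 EAE and 1160 naive cells) the EAE levels were higher by less. The summed level was 2769 CPM in EAE TRAIL-, against 1693 CPM in naive TRAIL-, a ratio of 1.64 (1.53 to 1.75). Ifitm3 was 1.93-fold higher (1.72 to 2.16), Bst2 1.82-fold (1.49 to 2.23), Usp18 1.69-fold (1.16 to 2.45) and Isg15 1.35-fold (1.12 to 1.62). None of the 8 members past the mean of 50 CPM was 2-fold higher, where 2.02% of all genes were. Below that level Ifit2 was 2.13-fold (1.25 to 3.62) and Ifi27l2a 2.44-fold (1.25 to 4.82) higher, which at 10 CPM made 2 of 10, against 7.19% of all genes. Rsad2 stood at 1.39-fold (1.10 to 1.76), but 32 of its 127 EAE UMIs came from 1 cell, and without the highest cell of each library the ratio was 1.08 (0.835 to 1.40). Monocyte markers summed to 2187 CPM in EAE TRAIL-, against 1527 CPM in naive TRAIL- endothelial-like cells, with a UMI of 11 of the 12 markers in EAE TRAIL- and 10 in naive TRAIL-, and their part in these ratios was not tested.

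The EAE over naive ratios of the 3 cell types of the TRAIL- gate were then set against each other, since all come from the same pair of libraries. For the sum of the genes the pericyte ratio was 2.04 times the endothelial one (1.78 to 2.35), and the microglial ratio 3.67 times the endothelial one (2.93 to 4.61). For Isg15 these values were 6.06 (3.17 to 11.6) and 3.74 (2.01 to 6.96). For Ifitm3, which made up most of the pericyte sum in both libraries, they were 1.61 (1.33 to 1.94) and 4.74 (2.52 to 8.92). Between pericytes and microglia the genes parted: Ifitm3 had a pericyte ratio 0.340 times the microglial one (0.179 to 0.644), while that of Ifi27 was 2.32 times as large (1.18 to 4.54) and that of Isg15 did not differ detectably, at 1.62 times (0.686 to 3.83). In EAE TRAIL- the endothelial-like cells still had 2.42 times (2.20 to 2.67) the summed level of microglia-like cells, but Bst2 was at 1.01-fold (0.814 to 1.24), Ifit2 at 0.910-fold (0.540 to 1.53) and Ifi27l2a at 0.196-fold (0.118 to 0.314). Of the 10 members, all past the mean of 50 CPM there, 7 were at least 2-fold higher in endothelial-like cells and 1 lower, where 28.3% of all genes were higher and 22.8% lower.

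Arterial and capillary cells also differed in EAE over naive. In capillary endothelial-like cells Isg15 stood at 352 CPM in EAE and 228 CPM in naive (1.55-fold, 1.25 to 1.92), and in arterial ones at 330.4 CPM in EAE and 375 CPM in naive (0.880-fold, 0.594 to 1.29). The arterial ratio was 0.568 times the capillary one (0.372 to 0.869) for Isg15, 0.508 times (0.318 to 0.810) for Bst2 and 0.982 times (0.767 to 1.26) for Ifitm3. The higher arterial levels of naive mice were thus not found in EAE for Isg15, at 0.938-fold (0.650 to 1.33) arterial over capillary, whereas Ifitm3 remained 1.59-fold higher (1.33 to 1.90). Rsad2 had an arterial over capillary value of 0.412 times (0.240 to 0.708), which includes the single capillary cell with 32 UMIs. The arterial cells numbered 100 in EAE.

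Microglia-like cells allow the 2 gates to be compared within a cell type. In EAE the summed level was 917 CPM in TRAIL+ and 1145 CPM in TRAIL- cells, a ratio of 0.801 (0.732 to 0.877). Ifitm3 stood at 0.493-fold (0.393 to 0.622) and Ifi27l2a at 0.523-fold (0.418 to 0.660) in TRAIL+, while Isg15 at 1.15-fold (0.892 to 1.51) and Bst2 at 0.890-fold (0.755 to 1.05) did not differ detectably. Of the 6 members past the mean of 50 CPM, 1 was at least 2-fold lower in TRAIL+, Ifitm3, where 1.63% of all genes were. That call was lost with scaling factors from all genes, which move every ratio here by 0.20 to 0.21 on the log2 scale. Rsad2, at 0.553-fold, was at 1.01-fold (0.580 to 1.87) without the highest cell of each library, since 15 of the 30 UMIs in EAE TRAIL- came from 1 cell. In naive mice the sums were 205 CPM in TRAIL+ and 191 CPM in TRAIL-, with a ratio of 1.07 (0.864 to 1.35). Only Bst2 passed the mean of 50 CPM, and it was not 2-fold apart, where 0.315% of all genes were higher and 0.883% lower in TRAIL+. Ifitm3 stood at 0.325-fold (0.151 to 0.742) and was the 1 member lower at 10 CPM, where 5.07% of all genes were.

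Monocyte or macrophage-like cells had the highest summed level of the 4 main types in EAE TRAIL-, 3893 CPM in 276 cells, and 2366 CPM in 215 cells of EAE TRAIL+. In EAE TRAIL- Isg15 stood at 738 CPM in monocyte or macrophage-like against 131 CPM in microglia-like cells (5.63-fold, 4.36 to 7.37), Ifitm3 at 1568 against 202 CPM (7.78-fold, 6.35 to 9.62) and Rsad2 at 360.5 against 58.7 CPM (6.14-fold, 4.20 to 9.29). Of the 8 members past the mean of 50 CPM, 5 were at least 2-fold higher than in microglia-like cells, where 17% of all genes were. In EAE TRAIL+ Ifitm3 was 7.99-fold (6.89 to 9.27) and Isg15 2.40-fold (2.02 to 2.83) higher, with 4 of 6 members at least 2-fold higher against 12.4% of all genes. Ifit3 was at 0.840-fold (0.578 to 1.19) there. These cells were not compared between EAE and naive, since different clusters held them: 273 of the 276 EAE TRAIL- cells were monocyte-like and 92 of the 106 naive TRAIL+ cells macrophage-like, and neutrophil markers summed to 14806 CPM in that naive class. The macrophage-like cells of naive TRAIL+ had 474 CPM of Bst2 against 102 CPM in microglia-like cells (4.65-fold, 3.46 to 6.14) and 245 CPM of Ifitm3 against 7.17 CPM (34.1-fold, 19.1 to 61.9). Of 6 members 5 were at least 2-fold higher there, against 13.6% of all genes, and 22 of their 25 Rsad2 UMIs came from 1 cell.

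The remaining classes were small. Astrocyte-like cells, the cells named in the labels, had a summed level of 287 CPM in the 145 cells of naive TRAIL+, with 86.0 CPM of Bst2, 81.2 CPM of Ifi27 and 9.56 CPM of Isg15, and were too few in EAE for a comparison. Oligodendrocyte-like cells had 270 CPM of Ifit3 (167 to 413) in 35 cells of EAE TRAIL- and 7.54 CPM (0.191 to 42.0) in 79 cells of naive TRAIL-. Choroid plexus epithelial-like cells had 80.4 CPM of Isg15 (42.8 to 137) in EAE TRAIL-, against 0 UMIs in naive TRAIL-. With under 50 EAE cells, no ratio was formed for these types.

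Cell by cell, more microglia-like cells held a UMI of the genes in EAE than in naive, and most of them held 1 gene at this depth. At 500 UMIs a cell, at least 1 of the 10 genes was seen in 26.1% of EAE TRAIL+ and 31.7% of EAE TRAIL- microglia-like cells, against 8.71% in naive TRAIL+ and 7.01% in naive TRAIL-. At least 3 of them were seen in 1.92% of EAE TRAIL+ cells (1.30 to 2.73), against 0.108% of naive TRAIL+ cells (0.0130 to 0.388). Of the EAE TRAIL+ cells 303 held 1 gene, 76 held 2 and 30 held 3 or more, and the 79 cells with most UMIs of the genes held 40.9% of these UMIs. The shares grow with depth: at 1000 UMIs a cell, at least 1 gene was seen in 40.3% of EAE TRAIL+ and 53.0% of EAE TRAIL- microglia-like cells, against 14.7% in naive TRAIL+ and 14.5% in naive TRAIL-. In endothelial-like cells the shares at 500 UMIs were 58.1% and 8.45% in EAE TRAIL-, against 42.8% and 3.79% in naive TRAIL-. Some of the genes were seen together in some of the classes. Of the 85 EAE TRAIL+ microglia-like cells with a UMI of Ifit1, Ifit2, Ifit3, Rsad2 or Usp18, 21.2% (13.1 to 31.4) also had an Isg15 UMI. The share was 4.19% (3.23 to 5.34) of the 1480 without. Bst2 was seen in 31.8% against 10.4% of these cells and Ifi27 in 1.18% against 3.18%. In EAE TRAIL- endothelial-like cells Isg15 was seen in 34.5% (24.6 to 45.4) of the cells with a UMI of those 5 genes against 7.56% (5.19 to 10.6) of those without, and Ifitm3 in 31.0% (21.5 to 41.9) against 30.5% (26.1 to 35.2). In naive TRAIL- endothelial-like cells Isg15 was seen in 18.8% (13.1 to 25.6) against 6.33% (4.90 to 8.03), and Ifitm3 in 27.3% (20.6 to 34.7) against 19.3% (16.9 to 21.9). Without thinning, Isg15 was seen in 14.9% of EAE TRAIL+ microglia-like cells, against 5.11% at 500 UMIs.

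**Figure D4:**
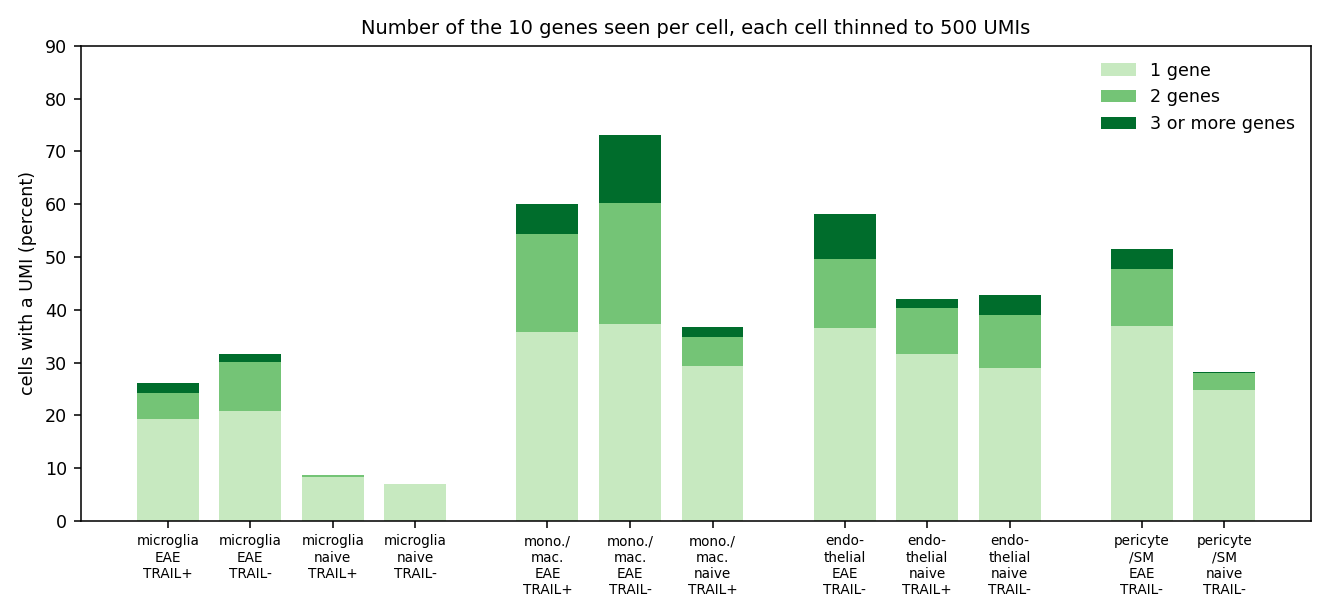
Percent of cells with a UMI of 1, 2 or at least 3 of the 10 genes, each cell thinned to 500 UMIs, for each type and library with at least 50 cells. Bars start at 0; the full bar was 26.1% in EAE TRAIL+ against 8.71% in naive TRAIL+ microglia-like cells, and 58.1% in EAE TRAIL- against 42.8% in naive TRAIL- endothelial-like cells.

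The rest of the pathway was read from lists of other genes. Of the interferon ligands none reached 50 CPM in any comparison, and Ifnb1, the gene of interferon beta, had 25 UMIs in all cells of EAE TRAIL+, 6 in EAE TRAIL-, 3 in naive TRAIL+ and 0 in naive TRAIL-. Ifng, the gene of interferon gamma, had 1 UMI in EAE TRAIL+, 11 in EAE TRAIL- and 0 in both naive libraries. In EAE TRAIL-, 8 of the 11 were in microglia-like and 3 in monocyte or macrophage-like cells. Which cells within these classes they came from was not tested. The receptor gene Ifnar1 was 5.38-fold (3.65 to 8.22) higher in naive TRAIL- endothelial-like than microglia-like cells, at 302 against 56.2 CPM, and Ifnar2 1.92-fold (1.52 to 2.44). In endothelial-like cells Ifnar1 stood at 151 CPM in EAE TRAIL-, against 302 CPM in naive TRAIL- (0.501-fold, 0.390 to 0.638). Ifnar1 was also lower in EAE in pericyte or smooth muscle-like cells, at 0.381-fold (0.188 to 0.731). In microglia-like cells it stood at 0.652-fold (0.519 to 0.816) in TRAIL+ and 0.697-fold (0.372 to 1.28) in TRAIL-. Irf7, a factor that amplifies the interferon response, was 2-fold higher in EAE endothelial-like cells, at 132 against 61.6 CPM (2.14-fold, 1.52 to 3.01), where Stat2 and Irf9 were at 1.02-fold (0.683 to 1.51) and 1.11-fold (0.894 to 1.37).

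Other interferon-stimulated genes were read in the same comparisons. Of 17 such genes past the mean of 50 CPM in TRAIL+ microglia-like cells, 10 were at least 2-fold higher and 0 lower in EAE, against 2.34% and 0.406% of all genes, with a median log2 ratio of 1.01 against -0.05 over all genes. They included Ifi204, a DNA sensor, at 131 CPM in EAE and 16.3 CPM in naive, and Eif2ak2, the RNA-activated kinase PKR, at 91.4 and 28.0 CPM in EAE and naive. In endothelial-like cells 0 of 22 were 2-fold higher, against 2.02% of all genes, and 1, Parp9, was lower at 0.481-fold (0.284 to 0.782), where 2.65% of all genes were, with a median log2 ratio of 0.13 against -0.05 over all genes. In pericyte or smooth muscle-like cells 3 of 12 were 2-fold higher, against 2.85% of all genes. Of genes known for the response to type II interferon, 11 of 14 were at least 2-fold higher in EAE TRAIL+ microglia-like cells, against 2.34% of all genes, and 9 of 9 in EAE pericyte or smooth muscle-like cells, against 2.85%. In EAE endothelial-like cells 4 of 14 were, against 2.02% of all genes. These were Cd74, the chain that accompanies MHC class II, at 123 CPM in EAE and 8.93 CPM in naive (13.8-fold, 7.05 to 30.0), H2-Aa, Gbp2 and Irf1. In TRAIL+ microglia-like cells H2-Aa, a chain of MHC class II, was 42.9-fold higher (34.4 to 54.0), from 26.7 CPM in naive. A gene that reaches the mean of 50 CPM only through EAE had to be counted. Among the genes named here this holds for Ifi204, Eif2ak2 and H2-Aa in these microglia-like cells. In endothelial-like cells it holds for Cd74 and H2-Aa. The counts of these lists are therefore not a result by themselves. The GAAANNGAAA letters were found for 15 of 37 other interferon-stimulated genes (40.5%) and 9 of 16 type II genes (56.2%) that have a window.

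Across 16 sums of 1 cell type in 1 library, the genes whose levels ran most like Isg15 were Igtp (Pearson's r of 0.946), Rtp4 (0.946) and Sp100 (0.922), among 4032 genes whose mean was 50 CPM or more, on the scale log2(CPM + 10). Rtp4 and Sp100 belong to the list of other interferon-stimulated genes and Igtp to the type II list. Those most like Bst2 were Trim30a (0.888), H2-T23 (0.884) and Gbp7 (0.884), and those most like Ifitm3 were Crip1 (0.939), Anxa2 (0.926) and Iqgap1 (0.894), none of which is in either list. Among the members Isg15 ran with Ifit3 (0.919) and Ifit1 (0.907) and not with Ifi27 (-0.02). The 16 sums share libraries and cell types and differ in depth, so these values describe the 16 sums only.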

How the data were processed

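Each of the 4 samples has 1 deposited table of UMI counts per cell barcode and gene, which the authors made from inDrops (version 3) libraries. Per the submitters' processing notes reads were aligned with Bowtie and the build is GRCm38, while no source used here gives the version, annotation or strand setting. The lowest barcode held 100 UMIs in every table, so a first filter came before deposit. Sorted cells followed papain digestion and a density gradient, per the labels' protocols.

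Barcodes with at least 500 UMIs and at most 20% mitochondrial UMIs were kept, 7899 of 12987. Cells were clustered with scanpy 1.11.5 (Python 3.11.15; scaling to 10000 UMIs, 2000 variable genes, 30 principal components, 15 neighbours, Leiden resolution 1), leaving out 113 genes of the interferon lists. The 15 clusters were named from 20 marker lists where at least 3 markers were among the 50 leading genes found in at least 20% of the cells, a detection limit set after the clusters were seen. Scrublet at an expected rate of 5% called 90 doublets, which were kept.

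UMIs were summed by cell type and library and divided by the sum. Ratios carry exact Clopper-Pearson intervals, levels exact Poisson intervals and shares of cells exact binomial intervals, all 95%, and a level of 0 was bounded by 3 UMIs. The interval of a ratio of ratios is a normal approximation on the log scale. Differences were counted at a fold of 2 among genes whose mean level reached 50 CPM, and sets under 50 cells were given as levels only. The scripts were tested on simulated counts. Alternatives used TMM factors (edgeR 4.0.16), DESeq2 1.42.0 size factors, other limits on barcodes and levels, other classes of cells, and sums without the cell that holds most UMIs of a gene. The members, the gene lists and the comparisons were chosen with earlier results of these data known. The genes of other lists that are named were the 4 with the largest ratio in 2 comparisons and the members of the pathway lists. Coordinates of genes are those of GENCODE M21, in which 41343 of the 41862 columns have a name.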

Additional observations from a re-analysis of the deposited data

Results flagged for a closer look

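Barcodes under 500 UMIs were used in no comparison, and the sum of the 10 genes was also higher in EAE there, though not every gene was. In these barcodes, the lowest of 100 UMIs, their summed level was 1048.3 CPM in EAE TRAIL+ (978 barcodes), against 309 CPM in naive TRAIL+. In the other gate it was 1601.8 CPM in EAE TRAIL- (1180 barcodes), against 1041.6 CPM in naive TRAIL-. Rsad2 stood at 36.4 CPM in EAE TRAIL- against 71.8 CPM in naive TRAIL- there, and Ifit1 at 91.0 against 110.7 CPM. In the TRAIL+ gate Rsad2 had 5 UMIs in EAE against 6 in naive, and Usp18 had 2 in each. These barcodes were not divided by cell type. Among kept cells the mix of types differed, endothelial-like cells being 31.1% of EAE TRAIL- and 51.4% of naive TRAIL-. The parts of the mix of types and of RNA outside cells in these levels were not tested.

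The log2 ratio of EAE over naive had different signs in the endothelial clusters of the TRAIL- gate for Isg15, Rsad2 and Ifit2. It was -0.18 in arterial and 0.63 in capillary endothelial-like cells for Isg15, and the ratio of the folds was 0.568 (0.372 to 0.869). For Rsad2 it was -0.48 in arterial and 0.80 in capillary endothelial-like cells, a ratio of folds of 0.412 (0.240 to 0.708). Without the cell that holds most Rsad2 UMIs on each side, the capillary ratio of 1.74 became 1.26 (0.925 to 1.71). Ifit2 stood at 0.911-fold in arterial and 3.50-fold in capillary endothelial-like cells, a ratio of folds of 0.260 (0.0888 to 0.762). The smallest of its counts was 8 UMIs.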

How the results depend on the processing

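No paired analysis was possible because each group is 1 library and the labels give no replicate numbers, and for the same reason no replicate could be left out. The 1199 recomputed values of single genes held no reversal of a called difference, and 65 moved beyond their counting interval. Of the 65, 38 moved in the setting with the interferon genes in the clustering, where 68 values did not. Of 90 shares of cells, 45 moved when cells were thinned to 1000 UMIs in place of 500: at least 1 gene was then seen in 40.3% of EAE TRAIL+ microglia-like cells, against 26.1%, and at least 3 in 5.48%, against 1.92%. Counts of members at least 2-fold apart changed as follows. With a mean of 10 CPM, and with no minimum, the count higher in EAE was 9 in TRAIL+ and 9 in TRAIL- microglia-like cells, 2 in endothelial-like and 10 in pericyte or smooth muscle-like cells, against 4, 4, 0 and 4 at 50 CPM. The count higher in naive endothelial-like than microglia-like cells was then 10, against 6. In naive microglia-like cells the count lower in TRAIL+ was 1 at 10 CPM, and with no minimum 2 were higher and 2 lower, against 0 and 0. In EAE microglia-like cells the count lower in TRAIL+ than in TRAIL- was 1, but 0 with TMM or DESeq2 factors, with at least 1000 UMIs a barcode, without doublets and without the highest cell, 2 with at most 10% mitochondrial UMIs, and 3 with the interferon genes in the clustering. The last setting gave 0 members higher in EAE TRAIL+ microglia-like cells. In it 740 EAE TRAIL+ and 32 naive TRAIL+ cells went to an unnamed cluster, and the part of the members in that move was not tested. Pericyte over microglia had 0 lower members in naive TRAIL-, and 1 with TMM or DESeq2 factors, 10 CPM, no minimum, at most 10% mitochondrial UMIs, marker assignment without clusters or doublets left out. Higher members in EAE endothelial-like cells were 2 with at least 1000 UMIs and 1 in capillary cells alone. Monocyte or macrophage over microglia in EAE TRAIL+ had 1 lower with marker assignment, against 0. The cause of these changes was not tested. Scaling factors moved the median gene by over 0.1 on the log2 scale in several comparisons, between -0.26 in pericyte over microglia (naive) and 0.29 in monocyte or macrophage over microglia (EAE TRAIL-). Depth limits Usp18, Ifit1, Ifit2, Ifi27l2a and Rsad2 most, with 0 to 3 UMIs each in naive TRAIL- microglia-like cells.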
